A study of Homo sapiens with 3 samples.

Results

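The genes described here are the glycolytic enzymes, with their transporters and regulators, and the genes of the hypoxia response, in AB12 cells, a mouse malignant mesothelioma line. They were taken by symbol from a list of 38 genes, 21 of glycolysis and 17 of the hypoxia response. Of these, 36 had a row in the table of 13936 genes, 20 of glycolysis and 16 of the hypoxia response. The lactate exporter gene Slc16a3 and the adrenomedullin gene Adm had no row and were not analysed here. Car9, which encodes a surface carbonic anhydrase, had 9, 7 and 10 reads in the 3 libraries and fell below the filter on low values, so 35 members were tested, all 20 of glycolysis and 15 of the hypoxia response.

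The study compared AB12 cells labelled shNF2 with AB12 cells labelled shSC, taken as the control hairpin. The column headers add AB12WT to the name of the shSC library and AB12KD to the names of the shNF2 libraries. The shSC group has 1 library, and the shNF2 group has 2, numbered 20 and 21 in their labels. All 3 came from cells grown in RPMI medium with 10% serum. The labels give neither the oxygen level nor the density of the cultures, do not say what the numbers 20 and 21 stand for, and do not say that the libraries came from separate cultures, so a p-value reflects nothing beyond how far these libraries differ, and that spread may be technical.

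Glycolysis splits glucose to pyruvate in the cytosol, and pyruvate is then reduced to lactate or passed to the mitochondria. Many tumours, mesothelioma among them, take up glucose avidly. When oxygen is low, the hypoxia-inducible factor HIF escapes the prolyl hydroxylases that mark it for destruction by VHL, pairs with ARNT and raises the transcription of glucose transporters, most glycolytic enzymes, mitophagy receptors and other genes. The alpha subunit of HIF is controlled mainly at the level of its protein, which was not measured here.

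Values are scaled counts, which are read counts per gene that the authors divided by a size factor for each library. Reads in genes numbered 29532600 in shSC, 25837151 in library 20 and 26829163 in library 21. Fold changes are differences of log2(scaled count + 1), shNF2 minus shSC. Scaled counts of Nf2, the targeted gene, were 1539 in shSC against 486 (library 20) and 458 (library 21) in shNF2 (log2 fold change -1.70 ± 0.24, SE, limma adjusted p = 0.00555). Under quantile normalization and in a fit with no variance trend, where limma called 0 of all genes, this call was lost (adjusted p of 0.496 and 0.187). Of 12 mesothelial markers 5 had a row, with a summed level of 43900 in shSC, 39947 in library 20 and 33759 in library 21. Krt7, a keratin gene, rose from 49.7 scaled counts in shSC to 289.8 in library 20 and 183 in library 21 (log2 fold change 2.19, limma adjusted p = 0.0119), a call not made in the settings that called 0 genes. The keratin genes Krt19, Krt8 and Krt18 were below shSC in both shNF2 libraries and did not pass (log2 fold changes of -0.86, -0.37 and -0.36, limma adjusted p of 0.0996, 0.664 and 0.694). Msln, which encodes mesothelin, had 7397, 9722 and 8977 scaled counts in these libraries (log2 fold change 0.34, limma adjusted p = 0.688). Markers without a row, Wt1 and Calb2 among them, were not analysed here. None of 8 lymphocyte and 7 endothelial markers had a row. The 3 of 9 fibroblast markers with a row summed to 14.6 in shSC, 22.0 in library 20 and 90.4 in library 21, where Acta2, a smooth muscle actin gene, was at 0.974, 1.05 and 69.0. The 4 of 12 macrophage markers with a row summed to 9307, 8559 and 8070, and among them Lyz2, a lysozyme gene, was at 56.5, 260.5 and 108 (log2 fold change 1.55, limma adjusted p = 0.191). Another macrophage marker, Cd14, was at 3222 in shSC, 2576 in library 20 and 1659 in library 21 (log2 fold change -0.64, limma adjusted p = 0.44). Mrc1 and Cd68, also macrophage markers, had log2 fold changes of -0.0077 and 0.11. The part of these marker genes in the results was not tested.

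Fold changes of the glycolysis members centred near 0, as those of all genes did, whereas the hypoxia response genes lay mostly below shSC. The 20 glycolysis members had a median log2 fold change of -0.016, with 0.024 in library 20 and -0.0061 in library 21, beside -0.0043 over all 12813 tested genes. Over 15 hypoxia members it was -0.31, from -0.48 in library 20 to -0.25 in library 21. Of the glycolysis members 8 lay above shSC in both libraries, 7 below in both, and 5 had the libraries on either side. Of the hypoxia members 10 lay below shSC in both libraries, 0 above in both, and 5 had the libraries on either side. Over all tested genes, 35.8% lay below shSC in both libraries and 36.1% above in both. These medians and counts describe the lists and carry no test, and the shNF2 libraries share their shSC library. In bulk RNA of this kind, fewer cells that express a gene and less of its RNA per cell cannot be told apart.

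No single member passed the test. Of 35 members tested, 0 had a limma adjusted p under 0.05 (Benjamini-Hochberg over all tested genes), where 0.843% of all genes did. With edgeR 0 members passed (0.617% of all genes) and with DESeq2 0 (0.78%). At an unadjusted limma p under 0.05 there were 7 members, all lower: Eno2 and Pfkfb4 of glycolysis, and Ankrd37, Ndrg1, Hilpda, Bnip3 and Higd1a of the hypoxia response. The same threshold held for 4.91% of all genes in the lower direction and 4.36% in the higher. edgeR gave 8 members at an unadjusted p under 0.05 and DESeq2 6, also all lower, where 5.07% and 3.04% of all genes were lower at that threshold. Without the filter on low values limma called Eno2 (adjusted p = 0.0148) and Ankrd37 (adjusted p = 0.0327), a setting that called 1.66% of all genes. The members' log2 fold changes had standard errors of 0.21 to 0.57 (median 0.23), and the spread of shSC, which has no replicate, was taken to equal that of the shNF2 libraries.

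**Figure D1:**
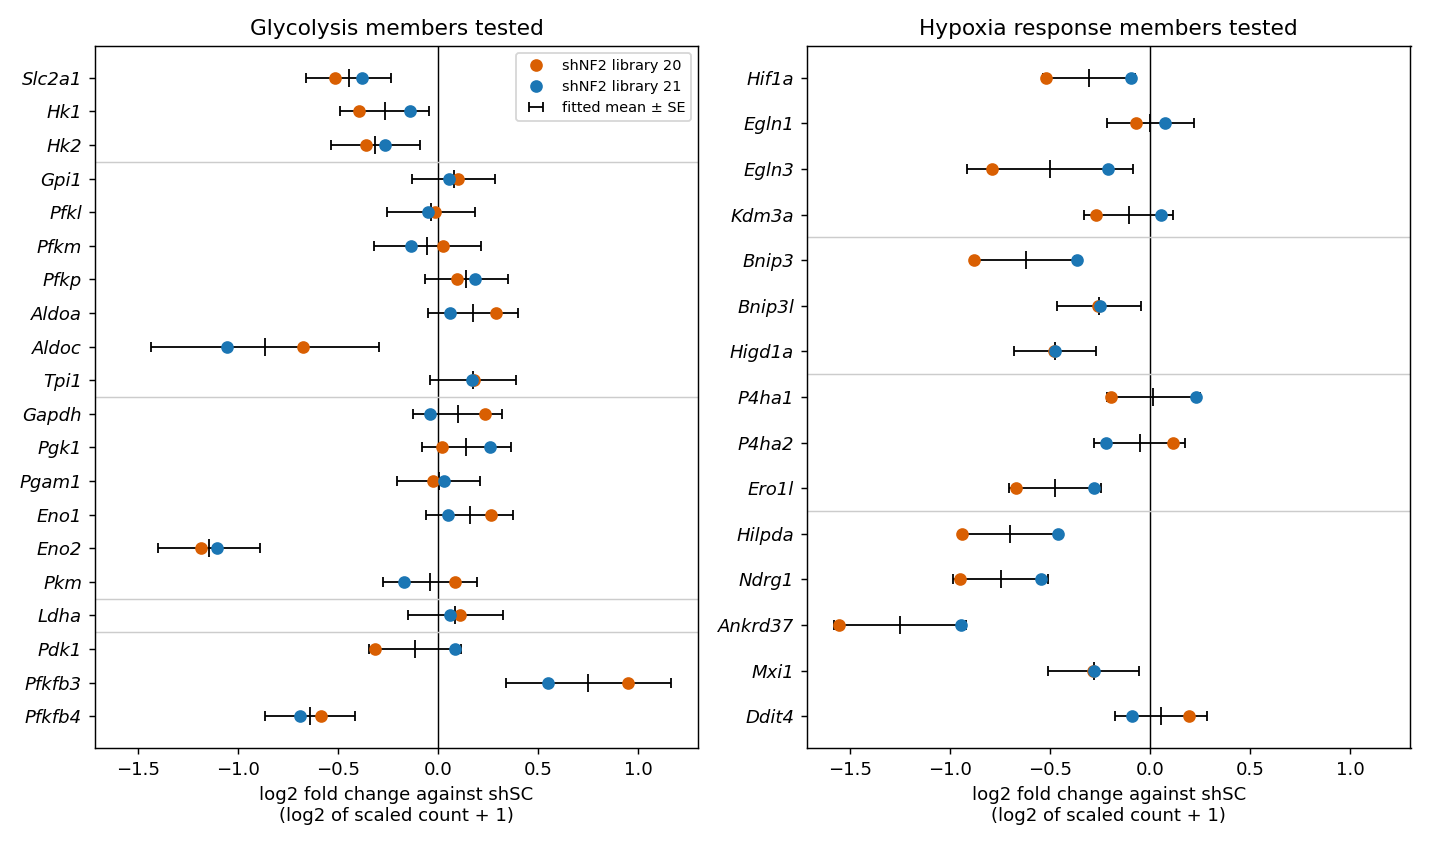
Log2 fold change of each tested member against shSC (x axis), with 20 glycolysis members on the left and 15 hypoxia members on the right, grouped by role between grey lines. Coloured points are shNF2 libraries 20 and 21, and black bars are the fitted mean ± SE. Most enzymes of the main reactions sit near 0, Eno2 and Ankrd37 lie farthest to the left, and Pfkfb3 lies farthest to the right.

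Genes for glucose entry and phosphorylation were below shSC in both libraries, 3 of 3 members, where 35.8% of all genes were. Slc2a1, the main glucose transporter of many tumour cells, had a scaled count of 2635 in shSC against 1845 in library 20 and 2027 in library 21 (log2 fold change -0.45 ± 0.21, SE, limma adjusted p = 0.56). Hk1 and Hk2, the hexokinases that trap glucose as its phosphate, had log2 fold changes of -0.27 and -0.31. The values of all 3 genes in shSC were higher than in either shNF2 library, but each 95% interval reached above 0, from -0.91 to 0.014 for Slc2a1, from -0.75 to 0.21 for Hk1 and from -0.79 to 0.17 for Hk2.

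The enzymes of the upper steps, which turn glucose phosphate into triose phosphates, were close to shSC apart from Aldoc. Their tested log2 fold changes were 0.077 for the isomerase gene Gpi1, 0.17 for the main aldolase gene Aldoa, 0.17 for the triose phosphate isomerase gene Tpi1, and -0.035, -0.055 and 0.14 for the phosphofructokinase genes Pfkl, Pfkm and Pfkp. The 95% intervals of these 6 genes ran at most from -0.63 (Pfkm) to 0.66 (Aldoa). Aldoc, the aldolase gene best known from brain, was read thinly, with 28 reads in shSC, 16 in library 20 and 13 in library 21. Its scaled counts were 27.3, 16.7 and 12.6, with a fold change of -0.86 ± 0.57 on the log2 scale (SE, limma adjusted p = 0.699). Both shNF2 libraries lay below shSC, and the 95% interval ran from -2.09 to 0.37.

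Of the lower steps, which yield ATP and pyruvate, Eno2 had the lowest fold change. Eno2 (ENSMUSG00000004267.16), the enolase gene best known from neurons and a known HIF target, had 787 scaled counts in shSC against 346 in library 20 and 365 in library 21, that is 44.0% and 46.5% of shSC. The shNF2 values lay close to each other and did not overlap shSC. The log2 fold change was -1.14 ± 0.25 (SE, 95% interval -1.69 to -0.59), and the adjusted p was 0.0619 with limma, 0.0683 with edgeR and 0.0566 with DESeq2. Eno1, the widely expressed enolase gene, had 9124, 10966 and 9445 scaled counts in shSC, library 20 and library 21 (log2 fold change 0.16). Gapdh, Pgk1, Pgam1 and Pkm, which encode the other enzymes of this stretch, had log2 fold changes of 0.097, 0.14, 0.0028 and -0.041. The 95% intervals of Eno1 and these 4 genes ran at most from -0.55 (Pkm) to 0.62 (Eno1). Ldha, which reduces pyruvate to lactate, had 43061, 46477 and 44939 scaled counts (0.086, interval -0.43 to 0.60).

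The 3 regulators of the pathway had fold changes on both sides of 0. Pfkfb3 and Pfkfb4 encode enzymes that make or remove the sugar phosphate activating phosphofructokinase, and both genes are known HIF targets. Pfkfb4 had 1490 scaled counts in shSC against 992 in library 20 and 922 in library 21 (log2 fold change -0.64 ± 0.22, SE, limma adjusted p = 0.327). Both shNF2 values were below shSC and near each other. Pfkfb3 had 42.8, 83.7 and 63.2 scaled counts in these libraries, from 44, 80 and 65 reads (0.75 ± 0.41, SE, limma adjusted p = 0.642). It was the only member with a log2 fold change over 0.5 in both libraries, where 5.07% of all genes were. A log2 fold change under -0.5 in both libraries was seen in 5 members, Aldoc, Eno2, Pfkfb4, Ndrg1 and Ankrd37, against 5.2% of all genes. Pdk1, a gene for a kinase that inhibits pyruvate dehydrogenase, had 2421, 1944 and 2571 scaled counts, with library 20 below and library 21 above shSC (log2 fold change -0.11).

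**Figure D2:**
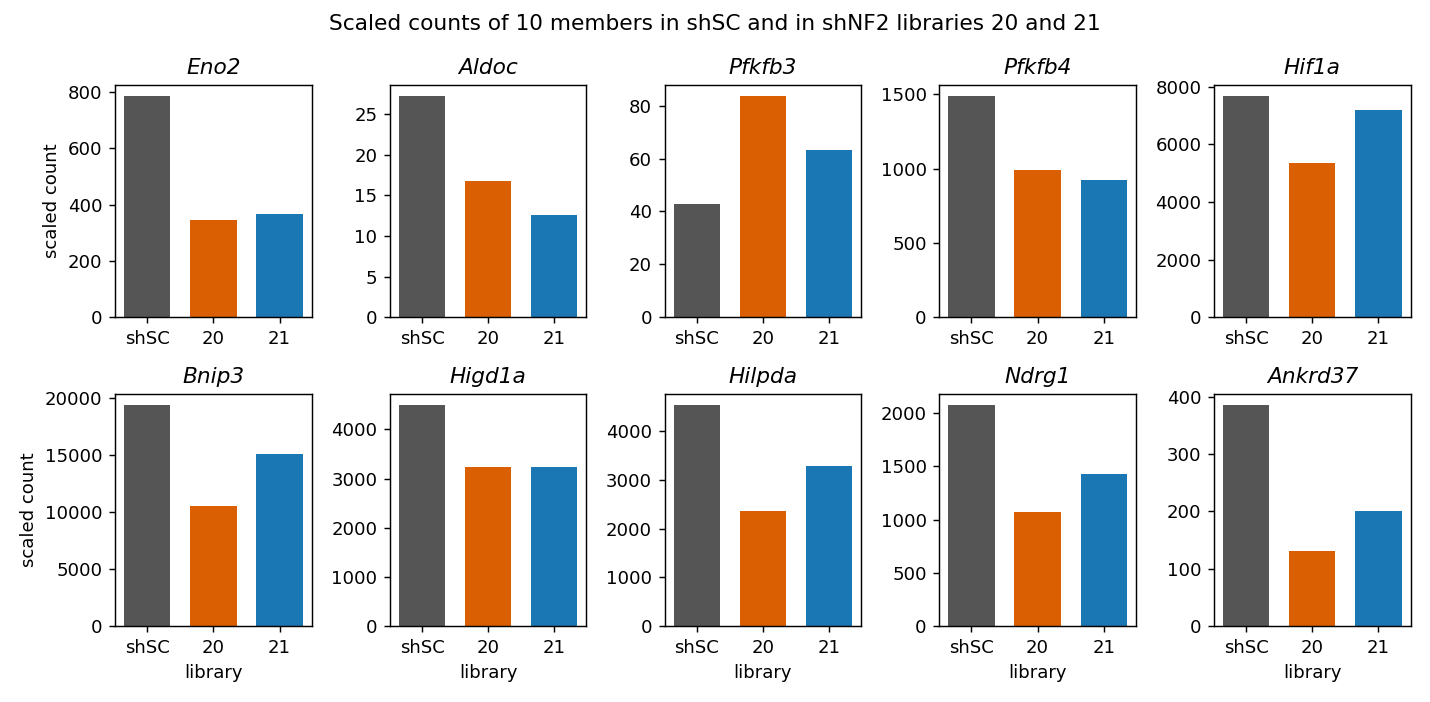
Scaled counts (y axis, from 0, on a scale of its own in each panel) in the shSC library and in shNF2 libraries 20 and 21 for 10 members, 1 bar per library with no replicate. Hif1a aside, these members were drawn by a rule that favours both bars on the same side of shSC. The rule was an unadjusted limma p under 0.05 or a log2 fold change past 0.5 in the same direction in both libraries. In 9 panels both shNF2 bars are below shSC, and in the panel of Pfkfb3 both are above it. Of all 35 tested members, 17 were below shSC in both libraries, 8 above in both, and 10 had the libraries on either side. For Eno2 and Higd1a the shNF2 bars are nearly level, while for Bnip3, Hilpda, Ndrg1 and Ankrd37 library 21 lies between shSC and library 20.

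The 4 oxygen-sensing genes had log2 fold changes between -0.50 and 0.0014. Hif1a, which encodes the oxygen-regulated subunit of HIF, had 7672 scaled counts in shSC against 5358 in library 20 and 7191 in library 21 (log2 fold change -0.31 ± 0.23, SE, limma adjusted p = 0.741). Library 20 was low and library 21 was near shSC. Egln1 and Egln3 encode prolyl hydroxylases that mark HIF for destruction, and both genes are themselves raised by it. Egln1 had a log2 fold change of 0.0014 (interval -0.46 to 0.47), and Egln3, with 88, 47 and 76 reads in shSC, library 20 and library 21, had -0.50 (interval -1.40 to 0.40). Kdm3a, an oxygen-dependent histone demethylase gene, had -0.27 in library 20 and 0.055 in library 21.

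Genes for proteins of the mitochondria were below shSC in both libraries, 3 of 3 members, where 35.8% of all genes were. Bnip3 (ENSMUSG00000078566.8) encodes an outer membrane receptor for mitophagy. Its scaled count was 19363 in shSC, against 10530 in library 20 and 15042 in library 21 (-0.62 ± 0.25, SE, limma adjusted p = 0.43). Its relative Bnip3l had 11347, 9464 and 9538 (-0.26). Higd1a, whose product sits in the inner membrane with the respiratory complexes, had 4495, 3227 and 3240 scaled counts (-0.48 ± 0.21, SE, limma adjusted p = 0.491). Higd1a and Bnip3l had nearly the same value in both shNF2 libraries, whereas Bnip3 differed between them.

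Members for collagen hydroxylation and disulphide formation had log2 fold changes between -0.47 and 0.017. P4ha1 and P4ha2 encode catalytic subunits of collagen prolyl hydroxylase. P4ha1 had 3289, 2873 and 3854 scaled counts in shSC, library 20 and library 21, and P4ha2 had 1816, 1968 and 1558, so that each gene had 1 shNF2 library on either side of shSC. Ero1l, whose product drives disulphide formation in the endoplasmic reticulum, had 11661, 7343 and 9599 scaled counts (log2 fold change -0.47, interval -0.97 to 0.020).

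The lowest fold changes among hypoxia members were those of Ankrd37, Ndrg1 and Hilpda. Ankrd37 (ENSMUSG00000050914.15) encodes a small ankyrin repeat protein and is a known HIF target. Its scaled count was 386 in shSC against 131 in library 20 and 200.2 in library 21, that is 33.9% and 51.9% of shSC (log2 fold change -1.25 ± 0.33, SE, 95% interval -1.96 to -0.54, limma adjusted p = 0.139). Ndrg1, a gene induced by hypoxia and other stresses, had 2076, 1074 and 1424 scaled counts (-0.75 ± 0.24, SE, limma adjusted p = 0.255). Hilpda, whose product restrains the breakdown of lipid droplets, had 4538, 2365 and 3294 (-0.70 ± 0.24, SE, limma adjusted p = 0.301). In these 3 genes shSC was the highest library, library 21 came next and library 20 was the lowest. Mxi1, a gene for an antagonist of Myc, had 1067, 877 and 878 scaled counts (-0.28), and Ddit4, an inhibitor of mTORC1 signalling that many stresses induce, had 1298, 1486 and 1220 (0.053).

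Library 20 lay farther from shSC than library 21 among hypoxia genes. Of 15 hypoxia members 13 were below shSC in library 20 and 12 in library 21, where 49.3% and 50.5% of all genes were. Set against each other, library 20 was below library 21 in 13 of 15 hypoxia members, with a median log2 difference of -0.39, and in 8 of 20 glycolysis members (0.041), where 50.8% of all genes were. Library 21 differed from shSC with the GC content of transcripts, taken from human transcripts of the same symbol as stand-ins (Spearman's rho across genes -0.373, against -0.037 in library 20), and the stand-ins had a median GC of 47.8% for hypoxia members and 55.6% for glycolysis members. With the GC and length trends removed, library 20 was below library 21 in 9 of 15 hypoxia members (median difference -0.21) and in 13 of 20 glycolysis members (-0.067), where 50% of all genes were. The hypoxia median against shSC was then -0.46 in library 20 and -0.30 in library 21. In that setting 12 of 15 hypoxia members lay below shSC in both libraries, and 1 lay above in both.

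Shares of reads within sets of related genes do not depend on the scaling between libraries. Those of Eno2, Pfkfb3, Bnip3 and P4ha2 differed from shSC beyond counting error in both shNF2 libraries, with P4ha2 on either side of shSC. Among these genes, only Eno2 and Pfkfb3 had shNF2 libraries that overlapped each other. Shares are of reads and not corrected for gene length, so they are compared only across libraries, and their exact Clopper-Pearson 95% intervals cover counting error alone. Eno2 made up 7.94% of Eno1 and Eno2 reads in shSC (7.42 to 8.48), 3.06% in library 20 (2.74 to 3.40) and 3.73% in library 21 (3.36 to 4.11). Pfkfb3 made up 2.80% of Pfkfb3 and Pfkfb4 reads in shSC (2.04 to 3.74), 7.78% in library 20 (6.22 to 9.59) and 6.41% in library 21 (4.98 to 8.10). In both sets the intervals of the shNF2 libraries overlapped each other and not that of shSC. How often this holds for other sets of genes was not computed. Neither set covers its whole gene family. Eno3, with 8523, 8218 and 7475 reads in shSC, library 20 and library 21, was left out of the first. Pfkfb1 (505, 710 and 647 reads) and Pfkfb2 (148, 154 and 172 reads) were left out of the second. With 2 libraries against 1 the smallest p of an exact permutation test is 1/3, so no test was made.

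In the other sets, the shNF2 libraries overlapped shSC, differed from it unequally or lay on either side of it. Hk2 made up 41.5% of hexokinase reads from Hk1 and Hk2 in shSC, 42.1% in library 20 and 39.4% in library 21, with overlapping intervals. Pfkp made up 66.2%, 67.8% and 70.1% of phosphofructokinase reads in these libraries, with an interval in library 21 (68.8 to 71.3) above that of shSC (64.9 to 67.5). Bnip3 made up 63.1% of Bnip3 and Bnip3l reads in shSC, 52.7% in library 20 and 61.2% in library 21. The intervals of these 3 shares did not overlap, and library 20 lay farthest from the others. P4ha2 made up 35.6% of its set in shSC, 40.7% in library 20 and 28.8% in library 21, with the shNF2 libraries on either side of shSC. Not drawn were the shares of Aldoc and Egln3, whose intervals in both shNF2 libraries overlapped that of shSC. Aldoc made up 0.155% of Aldoa and Aldoc reads in shSC (0.103 to 0.224), 0.0778% in library 20 (0.0445 to 0.126) and 0.0691% in library 21 (0.0368 to 0.118). Egln3 made up 4.49% of Egln1 and Egln3 reads in shSC (3.61 to 5.50), 2.75% in library 20 (2.03 to 3.64) and 3.71% in library 21 (2.935 to 4.62). As a share of all reads in genes, the 20 glycolysis members had 0.566% in shSC, 0.648% in library 20 and 0.632% in library 21, and the 16 hypoxia members had 0.257%, 0.188% and 0.238%. These last shares depend on the total. Scaled counts of all genes summed to 28755000 in shSC, 27027000 in library 20 and 26078000 in library 21. Scaled counts of the glycolysis members summed to 162630, 175090 and 164840, and those of the hypoxia members to 73780, 50858 and 62002.

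**Figure D3:**
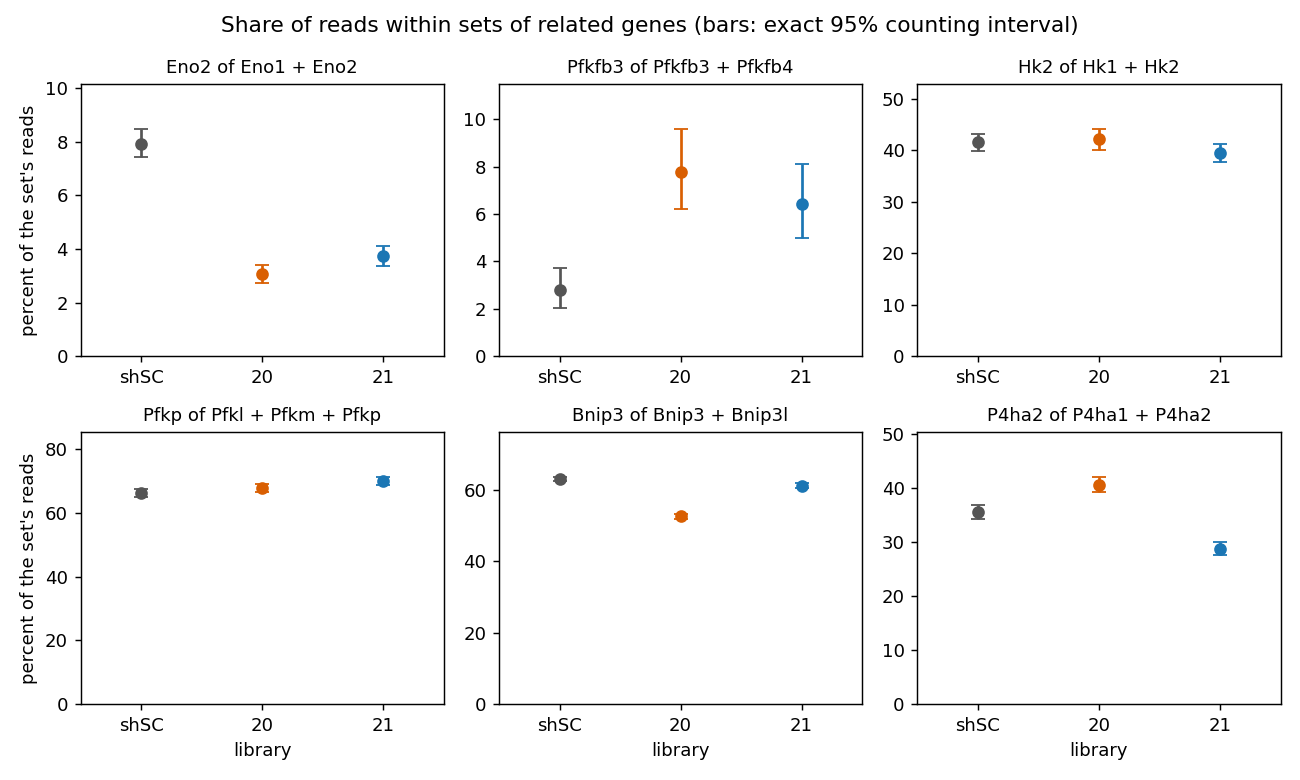
Share of reads (percent, y axis from 0, with its own scale in each panel) that 1 gene takes within its set of related genes in shSC and in shNF2 libraries 20 and 21, with exact 95% counting intervals as bars. The share of Eno2 is lower in both shNF2 libraries than in shSC (7.94%), that of Pfkfb3 is higher than in shSC (2.80%), and that of Bnip3 is lower in library 20 (52.7%) than in the other two libraries.

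Related genes outside the members were taken from 3 lists. Of 28 other glycolysis and pyruvate genes, all tested, 0 passed with limma, and 0 had an unadjusted p under 0.05. Their median log2 fold change was 0.059, with 11 above shSC in both libraries and 4 below in both (36.1% and 35.8% of all genes). Ldhb, which encodes the lactate dehydrogenase subunit favoured in oxidative tissue, had 244, 361 and 374 scaled counts in shSC, library 20 and library 21 (log2 fold change 0.59, limma adjusted p = 0.538). Pfkfb1, a relative of Pfkfb3 known from liver, had 0.47, Mpc2, a subunit of the mitochondrial pyruvate carrier, had -0.38, and Dlat, a subunit of pyruvate dehydrogenase, had 0.36.

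Of 16 tested genes of the HIF machinery 0 passed with limma and 0 had an unadjusted p under 0.05. The median was -0.14, with 7 below shSC in both libraries and 4 above in both (35.8% and 36.1% of all genes). Tceb1, the elongin C gene, had 11706, 8476 and 8990 scaled counts in shSC, library 20 and library 21 (log2 fold change -0.42). Tceb2, the elongin B gene, had -0.32, with 0.016 in library 20 and -0.65 in library 21. Vhl, the receptor subunit of the ligase that removes HIF, had -0.26. Os9, a lectin gene of the endoplasmic reticulum, had 0.22, and Epas1 and Hif3a, which encode other alpha subunits of HIF, had no row and were not analysed here.

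Of 35 other HIF targets 1 rose and 0 fell, with a median of -0.12. In this list 15 were below shSC in both libraries and 11 above in both (35.8% and 36.1% of all genes). The gene that rose was Ets1, a transcription factor gene, from 407 scaled counts in shSC to 1261 in library 20 and 1103 in library 21 (log2 fold change 1.53 ± 0.24, SE, limma adjusted p = 0.00849), a call lost in the same settings as that on Nf2. Vegfa, the angiogenic growth factor gene, had 2706, 1301 and 1581 scaled counts in these libraries (-0.91 ± 0.22, SE, limma adjusted p = 0.0963). Ccng2, a cyclin gene linked to growth arrest, had -0.65, and Bhlhe40, a repressor gene of the circadian and hypoxia responses, had -0.67. At an unadjusted limma p under 0.05 there were 3 lower and 3 higher genes in this list, where 4.91% and 4.36% of all genes were. The higher ones were Ets1, Dusp1 (log2 fold change 0.92) and Gbe1 (0.60).

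**Figure D4:**
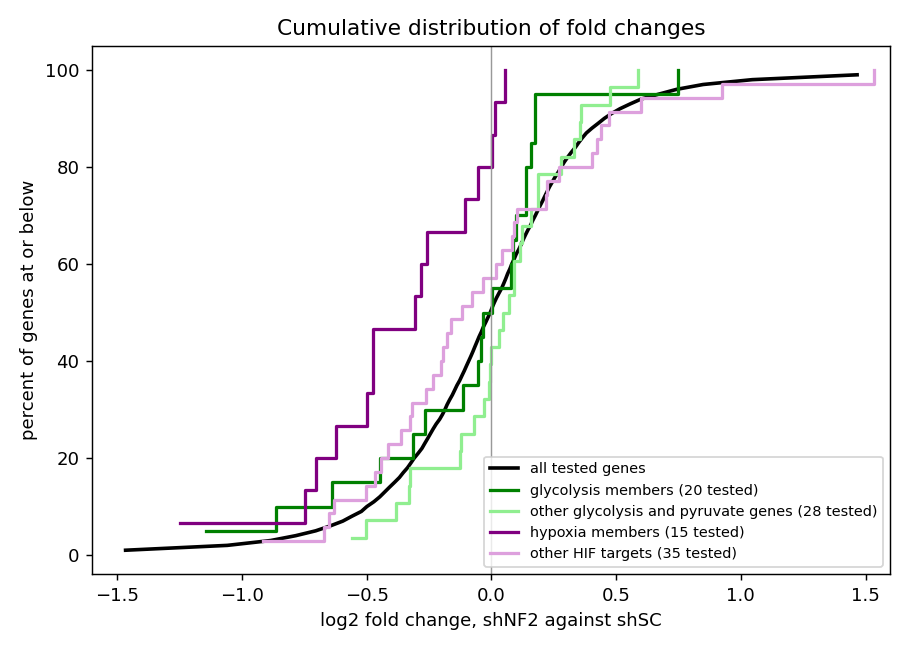
Percent of genes (y axis) at or below each log2 fold change of shNF2 against shSC (x axis) for all tested genes, the glycolysis and hypoxia members, and 2 lists of related genes. The curve of hypoxia members runs to the left of all genes and ends at 0.053, while that of glycolysis members crosses 50 percent near the curve of all genes (medians of -0.016 and -0.0043).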

How the data were processed

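The authors deposited 1 table of gene signal, named as scaled counts, for 3 RNA libraries. Mouse build mm10 and the tools STAR 2.5.0a, cutadapt 1.6, DESeq 1.22.1 and HTSeq 0.5.3 are listed in the submitters' processing notes, which do not say what each did. The organism label reads human, but the identifiers are mouse Ensembl identifiers, and the values were treated as mouse. Libraries were stranded and made from polyadenylated RNA, per the labels' protocols. Whether the counting used strand, and which filter took out genes of low count before deposit, was not given in the sources used here. Multiplied by 1 factor per library, 100% of the deposited values were whole reads within 0.001 reads. The 4 rows that name no gene (48.6%, 48.7% and 47.7% of reads in shSC, library 20 and library 21) were left out.

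The 12813 genes whose mean was at least 10 were fitted as log2(scaled count + 1) in limma 3.58.1 (R 4.3.3) with a trended variance. P-values were adjusted by Benjamini-Hochberg, with 0.05 as the threshold. Only the difference between the shNF2 libraries informs the spread (1 residual degree of freedom), which limma moderates across genes with 11.9 prior degrees of freedom. Intervals are 95% intervals of that fit. Alternatives were other pseudocounts, filters and scalings, limma with no trend or with robust moderation, edgeR 4.0.16 and DESeq2 1.42.0 on the recovered reads, each shNF2 library left out, and removal of each library's GC and length trend (mgcv 1.9.3). GC and length came from human GENCODE transcripts of the same symbol or a synonym, for 10308 tested genes (80.4%) and all 35 tested members. The fit was tested on simulated data.

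The members and lists were chosen with earlier results of these data known. Members given in full were those with an unadjusted p under 0.05 or a log2 fold change past 0.5 in the same direction in both shNF2 libraries, and Hif1a. Others were given by role. In the other lists the genes that passed and up to 4 with the smallest p were named, and further genes were chosen after their values were seen.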

Additional observations from a re-analysis of the deposited data

How the results depend on the processing

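The count of genes called was 108, and it was 232 without the filter on low values, 0 under quantile normalization (882 at an unadjusted limma p under 0.05) and 0 without a variance trend (1036). The count of members called was 0 and became 2 without the filter, with 0 in each of the other settings that had a test. The median of glycolysis members, -0.016, was 0.051 under quantile normalization, 0.0055 after the length and GC correction, and -0.0061 to 0.024 with 1 shNF2 library left out. The median of hypoxia members, -0.31, ran from -0.48 to -0.25 with 1 shNF2 library left out and was -0.43 after the length and GC correction. The count of hypoxia members above shSC in both libraries, 0, was 1 after that correction and 2 to 3 when a single shNF2 library was used; these counts under other settings were added after the data had been seen. Signs changed for members near 0, none of which passed in any of these settings. Pgam1 had -0.0061 with TMM, -0.0059 with edgeR and -0.016 after the length and GC correction. Egln1 had -0.0075 with TMM, -0.014 under quantile normalization, -0.0059 with edgeR and -0.13 after the correction. Pkm had 0.17 under quantile normalization, and P4ha1 and Pfkl had -0.11 and 0.21 after the correction. The cause was not tested. Nf2 and Ets1 missed the limma threshold in the settings that called 0 genes. Leaving out a shNF2 library leaves no residual degrees of freedom, so those settings gave values with no test. Depth limits Aldoc, Pfkfb3 and Egln3, and Car9 could not be compared.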

Other observations

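Near-identical copies of glycolytic genes, chosen after the table was seen, had rows of their own. Alignments that were not unique had a separate row that names no gene and was left out. They made up 37.5%, 36.5% and 35.5% of reads in shSC, library 20 and library 21. Reads that aligned equally well to a gene and its copy would be in that row, counted for neither. Eno1b, a retrocopy of Eno1, had 1155, 1453 and 883 scaled counts in these libraries, with the shNF2 libraries on either side of shSC (log2 fold change -0.028). Aldoart1, a copy of Aldoa, had 25.3, 25.1 and 21.4 scaled counts, and Ldha-ps2 had 10.7, 13.6 and 18.5. Aldoart2, Pgk1-rs7 and Pgam1-ps2 were below the filter on low values. The values of Eno1, Aldoa, Pgk1, Pgam1 and Ldha are uncertain to that extent.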
